A study of Rattus norvegicus with 6 samples.

Results

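Microglial identity genes are the genes by which the resident macrophages of the brain are recognised in tissue RNA. The 9 examined here, Aif1, P2ry12, Tmem119, Cx3cr1, Csf1r, Gpr34, Trem2, Tyrobp and Sall1, were taken by gene symbol from a table of 32623 rat genes, and each symbol had its own row. They were measured by poly(A) RNA sequencing of rat brain in 6 libraries, 3 labelled with the plasmid pcDNA3.1 bearing LINC00894, which is a human long non-coding RNA (LINC00894), and 3 labelled with pcDNA3.1 alone (vector). The title of the series names ischemia and reperfusion of the brain, yet the labels of the samples give no injury, region, strain, age, sex, dose or time for either group. They also do not state that each library is a different animal, and p-values then reflect the spread of these libraries, which can be partly technical. The level of LINC00894 itself was not analysed here.

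Microglia enter the brain early in development from the yolk sac and keep themselves by division, which needs signalling through the receptor CSF1R. In the resting state they sense neurons and extracellular nucleotides through receptors such as CX3CR1 and P2RY12, and they lower many of these homeostatic genes when they become reactive after injury. Aif1 encodes Iba1, a calcium-binding protein that bundles actin and is used to stain microglia, but blood-derived macrophages also make it. Tmem119, P2ry12 and Sall1 mark microglia more narrowly than Aif1, Tyrobp or Csf1r do. In bulk tissue, fewer cells of a type and less RNA per cell cannot be told apart.

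The libraries held 12843875 to 16268464 counts. Markers of neurons, astrocytes, oligodendrocytes and endothelium were detected in every library, apart from the endothelial Cldn5, which had 0 counts in each. The Y-linked Kdm5d and Eif2s3y together had 0 counts in LINC00894 replicates 1 and 2 and 1885 in LINC00894 replicate 3, against 1498 to 2071 in the vector libraries, so sex and group are partly confounded. The slope of log2 CPM (counts scaled to the library total) on the doubling of a gene's exonic length was -0.0972 in LINC00894 replicate 3 and lay between -0.0034 and 0.0139 in the other LINC00894 libraries, while in vector it was 0.0623 in replicate 3, 0.0056 in replicate 1 and 0.0188 in replicate 2. Short transcripts were thus relatively high in LINC00894 replicate 3 and relatively low in vector replicate 3.

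Aif1 was the member whose LINC00894 libraries all lay above its vector libraries. It stood at 7.82, 8.83 and 12.93 FPKM (counts scaled by exonic length and library total) in LINC00894 replicates 1, 2 and 3, against 5.03, 5.88 and 4.77 FPKM in vector replicates 1, 2 and 3. LINC00894 replicate 3 was the highest library, and the groups did not overlap. The counts behind these levels were 184, 204 and 310 in LINC00894 and 121, 172 and 135 in vector, which leave a 95% exact Poisson interval of 6.73 to 9.04 FPKM for the lowest LINC00894 library and 5.03 to 6.83 FPKM for the highest vector library. These intervals cover counting error only, and they overlap slightly. The means were 9.86 ± 2.71 FPKM in LINC00894 and 5.23 ± 0.581 FPKM in vector (SD, n = 3 each). As a log2 fold change this was 0.85 by edgeR's quasi-likelihood fit (SE 0.24, 95% interval 0.31 to 1.39). Over the 15121 genes tested, edgeR gave Aif1 a Benjamini-Hochberg adjusted p of 0.981 (unadjusted, 0.00606), which did not pass the threshold of 0.05.

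Across the 9 members, 1 (Aif1) had an unadjusted p under 0.05 by edgeR, and it was higher in LINC00894. Over all genes tested, 1.82% met that unadjusted threshold on the higher side and 2.22% on the lower side. With library totals in place of TMM scaling factors these shares were 2.84% on the higher and 1.37% on the lower side. No member and 0 genes in all (0.0%) passed the adjusted p by edgeR, which had 610 genes at an unadjusted p under 0.05, 4.03% of those tested. DESeq2 called 9 genes (0.0476%), none of them a member. Groups that did not overlap, with LINC00894 higher, were found for 7.77% of genes on the FPKM scale and 4.98% on TMM-scaled CPM, and on the lower side for 2.32% and 3.88%. By position among the tested genes, 45 had an unadjusted p as small as that of Aif1 or smaller.

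**Figure D1:**
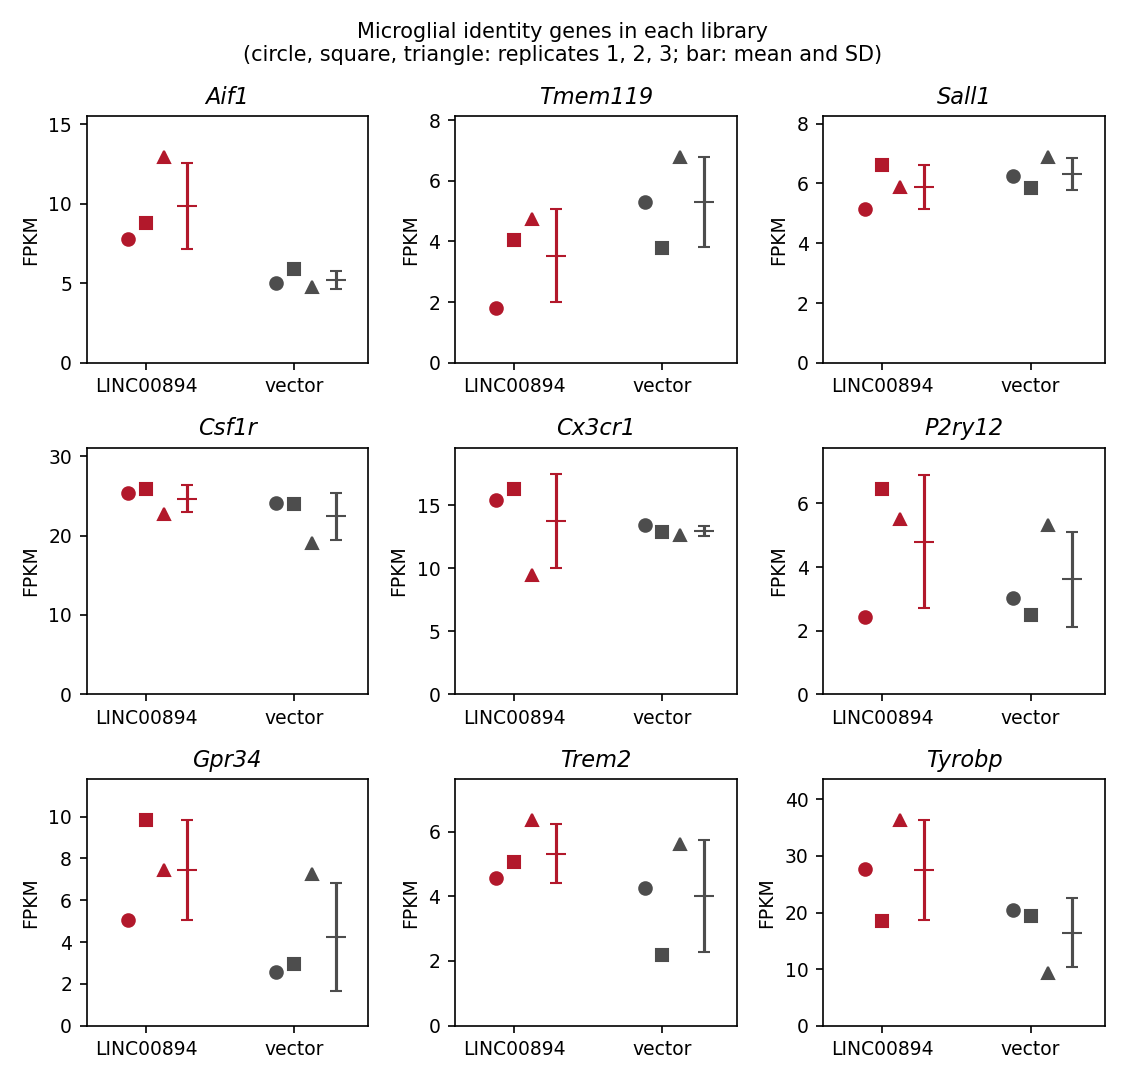
Level of each of the 9 microglial identity genes in FPKM (vertical axis, from 0) in the 3 LINC00894 and 3 vector libraries; points are libraries and bars give the mean and SD. Aif1 is the panel without overlap, at 7.82 to 12.93 FPKM in LINC00894 against 4.77 to 5.88 FPKM in vector.

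Tmem119, a membrane protein used as a marker that blood-derived macrophages largely lack, had the lowest fold change of the 9. It stood at 1.80, 4.06 and 4.74 FPKM in LINC00894, against 5.31, 3.80 and 6.77 FPKM in vector. LINC00894 replicate 1 was far below every other library, while LINC00894 replicates 2 and 3 lay above vector replicate 2, so the groups overlapped. With 51 counts, LINC00894 replicate 1 had a Poisson interval of 1.34 to 2.37 FPKM, below the interval of each other library. The mean was 3.53 ± 1.54 FPKM in LINC00894 and 5.29 ± 1.49 FPKM in vector (SD, n = 3 each). Its log2 fold change was -0.65 (SE 0.37, 95% interval -1.48 to 0.19), with an edgeR adjusted p of 0.981. Without LINC00894 replicate 1 the log2 fold change was -0.33.

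Sall1, the zinc finger transcription factor that maintains the microglial programme in mice, was among the steadiest members. It stood at 5.16, 6.63 and 5.89 FPKM in LINC00894, against 6.25, 5.83 and 6.87 FPKM in vector. Its log2 fold change was -0.17 (SE 0.18, 95% interval -0.57 to 0.23). LINC00894 replicate 1 was again the lowest library, but the highest library exceeded it by only 1.33-fold.

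Among the receptors, Csf1r and Cx3cr1 had fold changes close to 0. Csf1r, the receptor tyrosine kinase for CSF1 and IL-34, stood at 25.34, 25.89 and 22.74 FPKM in LINC00894, against 24.15, 24.00 and 19.05 FPKM in vector. With 1194 to 1555 counts per library it was the most deeply counted member, and its log2 fold change of 0.07 (SE 0.16) had a 95% interval of -0.28 to 0.42. Cx3cr1, the receptor for the neuronal chemokine fractalkine, stood at 15.45, 16.32 and 9.45 FPKM in LINC00894, against 13.41, 12.89 and 12.65 FPKM in vector. Its LINC00894 libraries lay on both sides of the narrow vector range, with LINC00894 replicate 3 lowest. By edgeR the log2 fold change was 0.02 (SE 0.24, 95% interval -0.52 to 0.55), moving to 0.21 when LINC00894 replicate 3 was left out and to -0.17 when replicate 2 was. The upper bounds for Csf1r and Cx3cr1 lay below the fold change estimated for Aif1. They lay above the lower bound for Aif1, 0.31, so the intervals overlapped and do not show a difference.

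P2ry12 and Gpr34 varied most within groups. P2ry12, the ADP receptor that directs microglial processes to injury, stood at 2.44, 6.46 and 5.50 FPKM in LINC00894, against 3.04, 2.5 and 5.32 FPKM in vector. The libraries of each group were split, with LINC00894 replicate 1 at the level of vector replicates 1 and 2, and vector replicate 3 at the level of LINC00894 replicates 2 and 3. P2ry12 had a log2 fold change of 0.34 (SE 0.43, 95% interval -0.62 to 1.30), which came to 0.035 without LINC00894 replicate 2 and 0.72 without vector replicate 3. Gpr34, a receptor for lysophosphatidylserine, stood at 5.06, 9.83 and 7.45 FPKM in LINC00894, against 2.59, 2.93 and 7.24 FPKM in vector. Of the vector libraries, replicate 3 alone reached the LINC00894 range. The log2 fold change was 0.74 (SE 0.43, 95% interval -0.22 to 1.69, edgeR adjusted p = 0.981), and with 1 library left out it ran from 0.45 (without LINC00894 replicate 2) to 1.36 (without vector replicate 3), never passing the adjusted threshold. It was 0.48 without vector replicate 1. Gpr34 is X-linked, and the LINC00894 library with Y-linked counts, replicate 3, stood at 7.45 FPKM, just above vector replicate 3. P2ry12 lies within the coordinates of Med12l and Gpr34 within those of Cask, each on the opposite strand. The sources used here do not say whether counting used strand, and overlap of the exons was not examined. Whether reads of these pairs were kept apart is therefore not known. Med12l gave -0.43 (SE 0.34) and Cask -0.41 (SE 0.28) as log2 fold change, of the opposite sign to P2ry12 and Gpr34.

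Trem2 and Tyrobp encode a receptor for lipids and its signalling adaptor, DAP12, which many other myeloid receptors also use. Trem2 stood at 4.56, 5.05 and 6.35 FPKM in LINC00894, against 4.26, 2.18 and 5.6 FPKM in vector. Vector replicate 2, with 41 counts, was the lowest library, the groups overlapped, and the log2 fold change was 0.34 (SE 0.36, 95% interval -0.48 to 1.15). Without vector replicate 2 it was 0.03. Tyrobp stood at 27.63, 18.59 and 36.33 FPKM in LINC00894, against 20.44, 19.37 and 9.38 FPKM in vector. LINC00894 replicate 2 lay below vector replicates 1 and 2, and vector replicate 3 was lowest of all. Tyrobp had a log2 fold change of 0.68 (SE 0.34, 95% interval -0.08 to 1.43, unadjusted p = 0.0726 by edgeR and 0.981 adjusted). Tyrobp has the shortest exonic length of the members, 603 bases, and its highest and lowest libraries were those with the steepest length slopes. With each library's length trend removed its log2 fold change was 0.54 and that of Aif1, whose exonic length is 1799 bases, was 0.78. Without vector replicate 3 the log2 fold change of Tyrobp was 0.38.

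**Figure D2:**
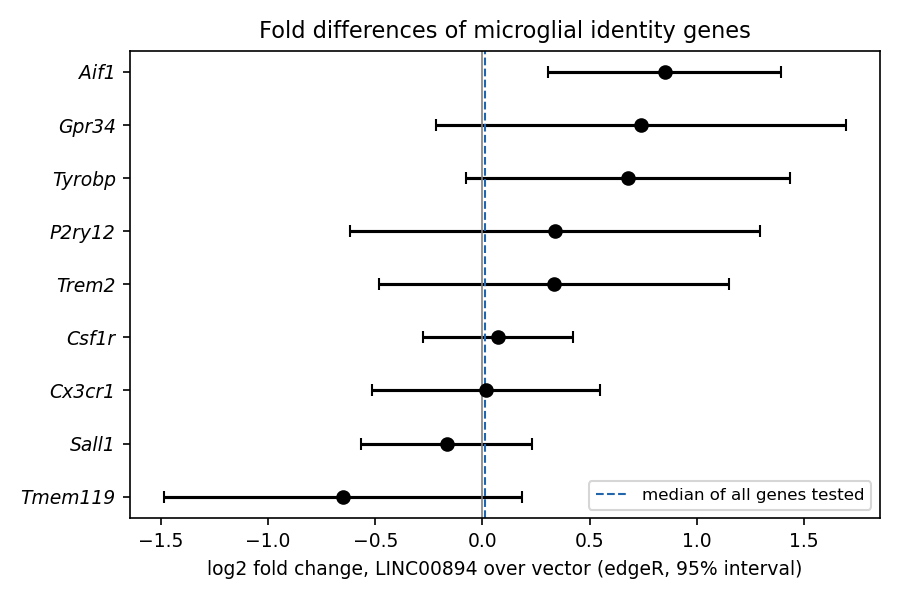
Log2 fold change of LINC00894 over vector for each member (horizontal axis) with its 95% interval from edgeR, sorted by size; the dashed line marks the median of all genes tested. The interval of Aif1, 0.31 to 1.39, is the one of the 9 that leaves out 0.

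The median log2 fold change of the 8 members other than Aif1 was 0.20, beside 0.01 over all genes tested. Of the 8, 6 had a positive value, where 51.8% of all genes tested did, and 62.6% with library totals in place of TMM factors. The sign of Cx3cr1 changed with the scaling, to -0.004 with median-of-ratios size factors. The median of the 8 was 0.02 without LINC00894 replicate 2. All 9 members passed the filter on low counts.

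Per length, Tyrobp, Csf1r and Cx3cr1 were the most abundant members in both groups. In LINC00894 the order by mean FPKM was Tyrobp (27.5), Csf1r (24.7), Cx3cr1 (13.7), Aif1 (9.86), Gpr34 (7.45), Sall1 (5.89), Trem2 (5.32), P2ry12 (4.80) and Tmem119 (3.53). In vector it was Csf1r (22.4), Tyrobp (16.4), Cx3cr1 (12.98), Sall1 (6.32), Tmem119 (5.29), Aif1 (5.23), Gpr34 (4.25), Trem2 (4.01) and P2ry12 (3.62). Neighbours in these orders overlapped in their libraries, except Csf1r over Cx3cr1 in LINC00894 and Cx3cr1 over Sall1 in vector. Aif1 ranked 4 in LINC00894 and 6 in vector, and Tmem119 ranked 9 in LINC00894 and 5 in vector.

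The comparison of Aif1 with the other members was made as a ratio of counts within each library, which does not depend on how libraries are scaled. For Tmem119 the ratio was 3.61, 1.81 and 2.26 Aif1 counts per Tmem119 count in LINC00894, against 0.786, 1.28 and 0.584 in vector. Every LINC00894 library had more counts of Aif1 than of Tmem119, and the groups did not overlap. The mean log2 ratio differed by 1.54 (SD 0.51 in LINC00894 and 0.57 in vector). For Sall1 the ratio was 0.524, 0.461 and 0.760 in LINC00894, against 0.278, 0.349 and 0.240 in vector, a log2 difference of 0.99. For Cx3cr1 it was 0.687, 0.734 and 1.86 in LINC00894, against 0.508, 0.619 and 0.511 in vector, a log2 difference of 0.84 that came to 0.38 without LINC00894 replicate 3, the library with the highest ratio. For Csf1r it was 0.139, 0.154 and 0.257 in LINC00894, against 0.0940, 0.111 and 0.113 in vector, a log2 difference of 0.74 (0.47 without LINC00894 replicate 3). These 4 of the 8 ratios had groups that did not overlap. The groups of Aif1 alone did not overlap either, so a gene that is steady or lower in LINC00894 can give such a ratio. How many of all genes tested would do so was not determined, and the count is not a result about these members.

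The other 4 ratios had overlapping groups. The log2 difference was 0.52 for P2ry12, 0.39 for Trem2, 0.11 for Tyrobp and -0.03 for Gpr34. With 1 library left out the difference for P2ry12 ran from 0.14 (without vector replicate 3) to 0.85 (without LINC00894 replicate 2), and that for Trem2 from 0.038 (without vector replicate 3) to 0.87 (without vector replicate 2). The sign for Tyrobp and Gpr34 depended on single libraries, with values of -0.11 to Tyrobp and 0.22 to Gpr34 without vector replicate 1. Two-sided exact permutation tests over the 20 arrangements of the libraries gave p = 0.1 for Tmem119, Sall1, Cx3cr1 and Csf1r, the floor of a design with 3 libraries a side, and 0.2 after Benjamini-Hochberg adjustment over the 8 ratios. The exact permutation p was 0.4 for P2ry12, 0.5 for Trem2, 0.8 for Tyrobp and 1.0 for Gpr34. No ratio could reach 0.05 in this design, and all 8 share the Aif1 counts.

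**Figure D3:**
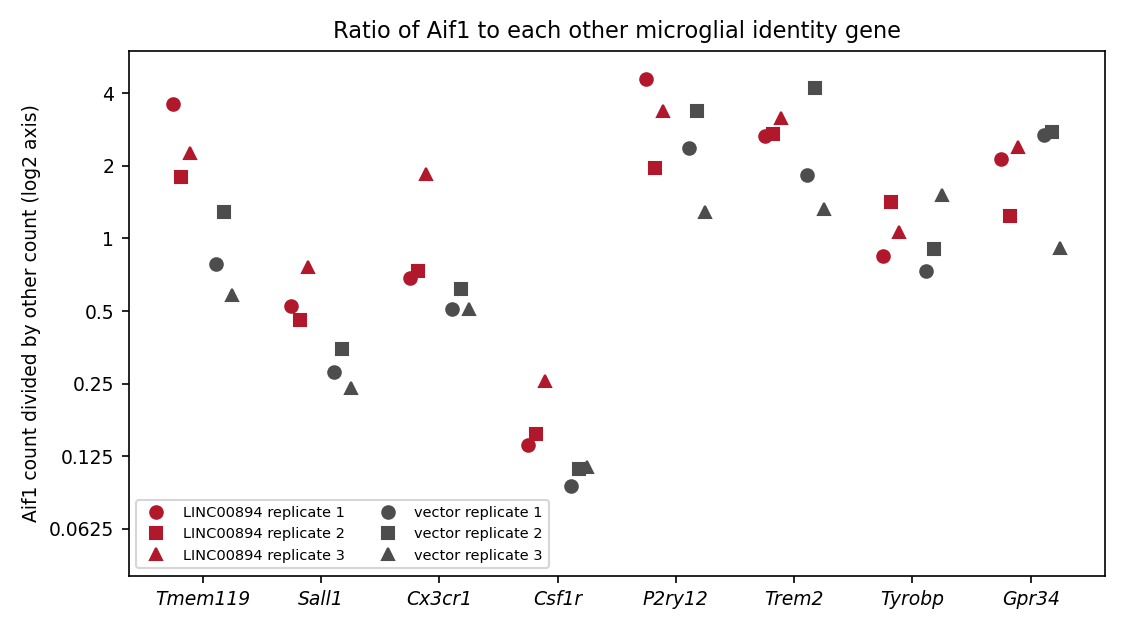
Aif1 counts divided by the counts of each other member in the same library (log2 axis), LINC00894 in red to the left of vector in grey, with marker shape giving the replicate. The groups are apart for Tmem119, Sall1, Cx3cr1 and Csf1r and overlap for P2ry12, Trem2, Tyrobp and Gpr34.

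The members did not move as 1 block over the libraries. Taken as log2 FPKM minus the gene's mean over the 6 libraries, LINC00894 replicate 1 had Tmem119 at -1.19 and P2ry12 at -0.68 while Tyrobp stood at 0.45 and Cx3cr1 at 0.23. Vector replicate 3 had Tyrobp at -1.11 and Aif1 at -0.57 while Tmem119 stood at 0.72, Gpr34 at 0.47 and P2ry12 at 0.45. In LINC00894 replicate 3, Aif1 (0.87) and Tyrobp (0.84) were high and Cx3cr1 (-0.48) was low. By the root mean squared difference between these profiles, Cx3cr1 and Csf1r were the closest pair (0.221 log2 units), members with narrow ranges. Aif1 was closest to Tyrobp (0.383), and P2ry12 to Gpr34 (0.386).

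**Figure D4:**
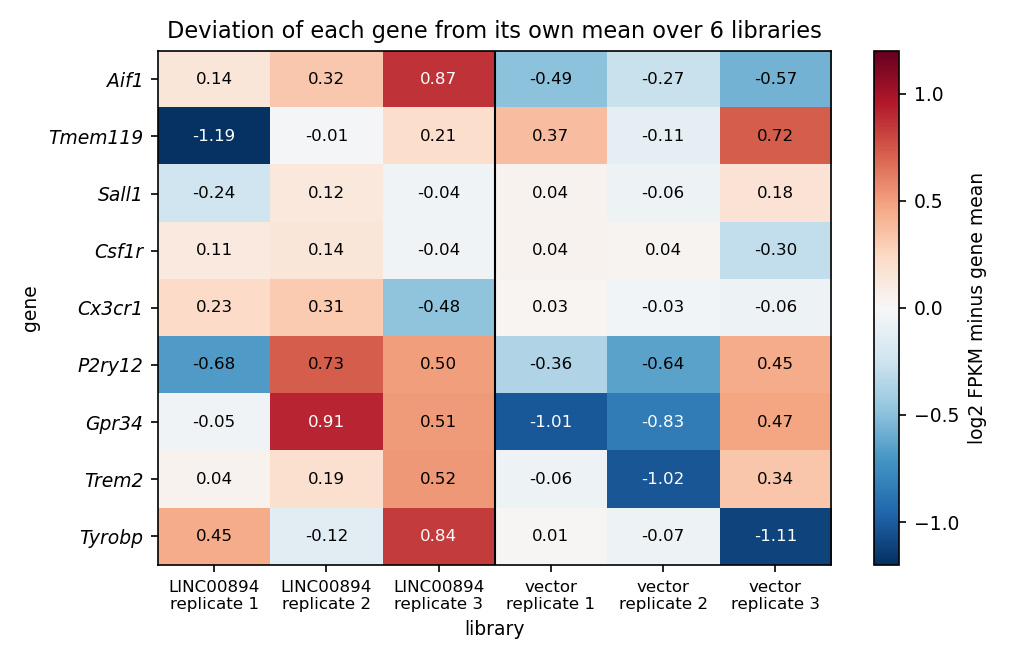
Log2 FPKM of each member (rows) in each library (columns) minus the gene's mean over the 6 libraries, red above and blue below it. Aif1 is positive in the 3 LINC00894 libraries and negative in the 3 vector libraries, whereas Tmem119 is lowest in LINC00894 replicate 1 (-1.19) and highest in vector replicate 3 (0.72).

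Of 13691 other genes with a symbol and a mean of at least 1 FPKM, the 5 whose TMM-scaled log2 CPM profile lay nearest to that of Aif1 over the 6 libraries were Lyl1, Pvalb, Blnk, Mettl21a and Rnaseh2b. Their root mean squared differences from Aif1 ran from 0.0534 log2 units for Lyl1 to 0.180 for Rnaseh2b. Lyl1, a basic helix-loop-helix factor of blood cell progenitors, stood at 1.78, 1.92 and 2.98 FPKM in LINC00894, against 1.13, 1.39 and 1.00 FPKM in vector. Blnk, an adaptor protein of B cell receptor signalling, stood at 4.45, 5.43 and 6.77 FPKM in LINC00894, against 3.68, 3.13 and 3.03 FPKM in vector. Pvalb, the calcium-binding protein of a class of inhibitory neurons, stood at 50.67, 48.57 and 79.36 FPKM in LINC00894, against 39.10, 41.32 and 29.35 FPKM in vector. With 6 libraries many unrelated genes can share a profile. Tyrobp was the nearest member, at position 1590, and Tmem119 the farthest, at position 13021.

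Promoter sequence was at hand for 4 members, Cx3cr1, Csf1r, Gpr34 and Trem2, in a RefSeq table of 250 bases before to 50 after each gene start (GRCr8). The core motif of PU.1, the myeloid transcription factor encoded by Spi1, was searched as GAGGAA or its reverse complement TTCCTC, a choice made with the expression values known. It was found in 3 of the 4 (Csf1r, Gpr34 and Trem2) and in 27.6% of the 33469 promoters of that length. The promoters of Gpr34 and Cx3cr1 are shown, the members of the 4 with the largest and the smallest positive fold change. They are printed 5′ to 3′ on the gene's strand with the motif in capitals; that of Gpr34 lies at chrX:11785787-11786086 and that of Cx3cr1 at chr8:128677017-128677316, both on the minus strand.
Gpr34: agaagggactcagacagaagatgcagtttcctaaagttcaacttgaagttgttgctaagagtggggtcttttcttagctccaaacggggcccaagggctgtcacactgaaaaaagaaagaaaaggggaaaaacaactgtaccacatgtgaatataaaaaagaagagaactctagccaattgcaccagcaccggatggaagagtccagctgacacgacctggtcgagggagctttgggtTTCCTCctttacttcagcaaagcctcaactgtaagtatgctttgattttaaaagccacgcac
Cx3cr1: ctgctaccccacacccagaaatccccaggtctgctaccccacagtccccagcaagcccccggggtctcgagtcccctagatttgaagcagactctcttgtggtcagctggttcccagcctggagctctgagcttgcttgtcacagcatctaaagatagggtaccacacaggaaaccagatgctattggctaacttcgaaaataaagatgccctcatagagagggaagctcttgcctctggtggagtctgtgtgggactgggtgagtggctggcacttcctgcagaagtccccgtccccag
A match is a description of the letters and does not show a binding site. Only these exact 6 letters were searched, so the Cx3cr1 promoter may hold other forms of the motif. A relation of the motif to the fold changes was not tested. Spi1 itself stood at 6.22, 3.90 and 7.89 FPKM in LINC00894, against 3.66, 4.07 and 2.22 FPKM in vector, with LINC00894 replicate 2 inside the vector range. Its log2 fold change was 0.79 (SE 0.32), with an edgeR p of 0.0356 before and 0.981 after adjustment.

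Other genes linked to these cells were described from lists, but bulk tissue does not show which cells their counts came from. Adgrg1 (36.85 to 47.04 FPKM) and Mef2c (46.28 to 104.51 FPKM), for example, stood above Csf1r in every library. The part of other cells in the values of these lists was not tested. Of 20 other homeostatic microglial genes that passed the filter on low counts, of 22 listed, 14 had a positive and 6 a negative log2 fold change, with a median of 0.21. Over all genes tested, 51.8% had a positive value. At an unadjusted p under 0.05 by edgeR, 1.82% of all genes tested were higher and 2.22% lower. Of the 20, 2 were higher and 2 lower at that threshold, and 0 passed the adjusted p. The lower calls depended on scaling and library, with 2 higher and 0 lower when library totals replaced TMM factors, and 0 lower without vector replicate 2 or without vector replicate 3. Without LINC00894 replicate 1 there were 0 higher and 2 lower. The median of this list was 0.08 without LINC00894 replicate 3 and 0.10 without vector replicate 3. Cd33, an inhibitory receptor for sialic acids, stood at 10.27, 6.86 and 6.94 FPKM in LINC00894, against 4.34, 5.02 and 3.76 FPKM in vector (log2 fold change 0.81, SE 0.28). Mertk, a receptor for the uptake of dying cells, stood at 11.02, 10.64 and 10.14 FPKM in LINC00894, against 12.06, 13.86 and 13.58 FPKM in vector (-0.38, SE 0.14). The groups did not overlap for Cd33, which was higher, or for Mertk, which was lower. Of 10 transcription factors of microglia, 5 had a positive and 5 a negative value (median 0.09). Besides Spi1, Ikzf1, a zinc finger factor of blood cells, gave a log2 fold change of 0.81 (SE 0.34), at an unadjusted p of 0.0381 by edgeR. Without LINC00894 replicate 1 or without vector replicate 3, 0 of the 10 factors had an unadjusted p under 0.05, and the median was -0.03 and -0.14 in those fits. Mef2c and Irf8 lay above an unadjusted p of 0.05.

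Of 12 ligands and partners of the member receptors, 10 passed the filter, 9 with a positive and 1 with a negative log2 fold change (median 0.24). Over all genes tested, 51.8% had a positive value. Cx3cl1, the ligand of CX3CR1 made by neurons, stood at 98.95, 119.04 and 124.31 FPKM in LINC00894, against 130.33, 118.95 and 145.40 FPKM in vector (log2 fold change -0.27, SE 0.16). Il34, the neuronal ligand of CSF1R, stood at 20.82, 23.88 and 26.87 FPKM in LINC00894, against 23.68, 24.99 and 18.36 FPKM in vector. Csf1 stood at 11.80, 5.21 and 6.10 FPKM in LINC00894, against 5.83, 5.13 and 6.14 FPKM in vector, so that LINC00894 replicate 1 stood alone. Plcg2, a phospholipase downstream of TREM2, stood at 2.25, 1.93 and 1.92 FPKM in LINC00894, against 1.48, 1.55 and 0.870 FPKM in vector, without overlap (log2 fold change 0.58, SE 0.28). Csf1 and Il34 were picked for mention with their values known.

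Pan-leukocyte and myeloid genes had higher means in LINC00894, with an uneven spread over the libraries. Of 14 pan-leukocyte and myeloid genes, 14 had a positive log2 fold change, with a median of 0.71 beside 0.01 over all genes tested and 0.21 for the homeostatic list, a difference that was not tested. Over all genes tested, 51.8% had a positive value, and 62.6% with library totals in place of TMM factors. At an unadjusted p under 0.05 by edgeR 7 of the 14 were higher, where 1.82% of all genes tested were. None of the 14 passed the adjusted p. The summed FPKM of the list was 240.8, 152.3 and 247.1 in LINC00894, against 151.5, 148.4 and 84.5 in vector, so that LINC00894 replicate 2 stood at the level of vector replicates 1 and 2. Leaving out LINC00894 replicate 1 brought the count at an unadjusted p under 0.05 to 0 (median 0.65), LINC00894 replicate 3 to 2 (median 0.65) and vector replicate 3 to 3 (median 0.47). Lcp1, an actin-bundling protein of leukocytes, stood at 27.74, 13.49 and 22.09 FPKM in LINC00894, against 12.33, 12.64 and 5.85 FPKM in vector (log2 fold change 0.97, SE 0.32). Of 16 disease-associated microglial genes that passed the filter, of 17 listed, 15 had a positive value (median 0.61) and 2, Clec7a and Itgax, had an unadjusted p under 0.05. The median of that list was 0.33 without LINC00894 replicate 1 and 0.26 without vector replicate 3, with 0 genes under the unadjusted threshold in each case.

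Markers of other cells that can express Aif1 or Tyrobp were set beside these results. Over all genes tested, 51.8% had a positive log2 fold change. Of 8 perivascular and meningeal macrophage markers 6 passed the filter, 4 of them positive (median 0.11), and their summed FPKM was 21.3, 6.49 and 6.91 in LINC00894, against 7.92, 10.3 and 8.26 in vector. Cd163 stood at 3.43, 0.55 and 0.93 FPKM in LINC00894, against 0.96, 0.84 and 0.57 FPKM in vector. Of 7 infiltrating monocyte markers 5 were matched and 4 passed the filter, 2 of them positive. Ccr2 and Ly6c were not matched. Summed FPKM was 76.4, 33.4 and 37.6 in LINC00894, against 38.1, 68.0 and 34.8 in vector. Most of this sum came from Cd44 and Fn1, with Cd44 at 38.88 FPKM in LINC00894 replicate 1 and 41.85 FPKM in vector replicate 2. Bulk tissue does not show how much of Cd44 and Fn1 came from monocytes. Of 7 neutrophil markers 4 passed the filter, all 4 positive (median 0.80). Csf3r (log2 fold change 0.58), 1 of these, was also on the list of other homeostatic microglial genes. The summed FPKM of the neutrophil list was 94.1, 12.9 and 34.0 in LINC00894, against 37.7, 15.1 and 9.41 in vector. LINC00894 replicate 1 was thus the highest library for these 3 lists, and it was the lowest for Tmem119, Sall1 and, narrowly, P2ry12. Without it the median was -0.67 for the macrophage list (0 of 6 positive) and 0.08 for the neutrophil list. Of the 9 listed markers of T, NK and B cells 8 were matched and 0 passed the filter, with summed FPKM of 0.34 to 1.48 in LINC00894 and 0.48 to 1.03 in vector. Aif1 was highest in LINC00894 replicate 3, where the macrophage sum lay below the vector range. In that library the sum of the monocyte list, mostly Cd44 and Fn1, was 37.6 and that of the neutrophil list 34.0. Both lay inside their vector ranges. Its sum for the pan-leukocyte and myeloid list, 247.1, was the highest of the 6 libraries. Aif1 gave 1.00 as its log2 fold change when LINC00894 replicate 1 was left out. The part of these other cells in the values of Aif1 and Tyrobp was not tested.

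**Figure D5:**
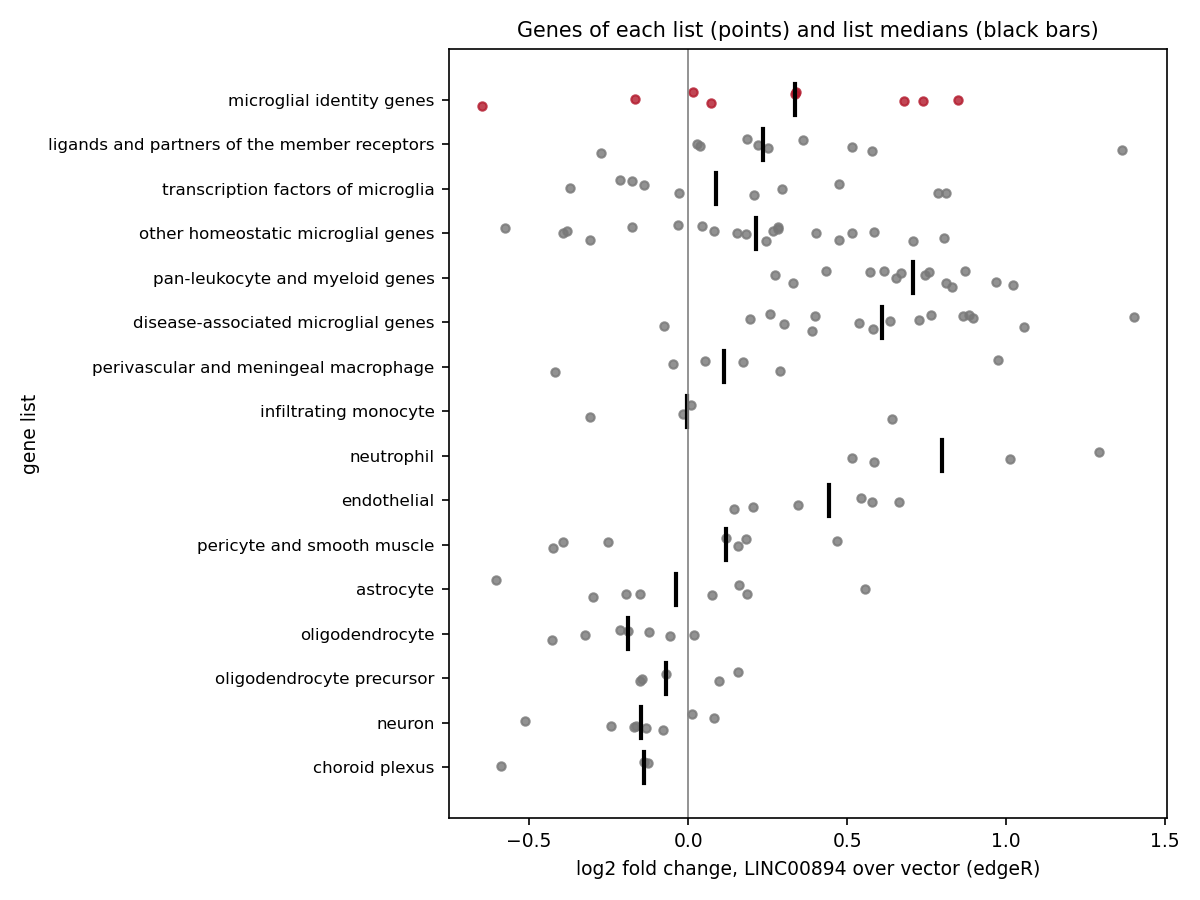
Log2 fold change of LINC00894 over vector (edgeR, horizontal axis) for the genes of each list that passed the filter on low counts (points) with the list median (black bar). The microglial identity genes, in red, spread from -0.65 to 0.85, and the pan-leukocyte and myeloid genes all lie above 0 with a median of 0.71.

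Among tissue cells, endothelial markers had a median log2 fold change of 0.44 over the 6 that passed the filter. All 6 were positive, where 51.8% of all genes tested were. Without LINC00894 replicate 1 the endothelial median was 0.11, with 3 of 6 positive. Neuronal markers had a median of -0.15 (6 of 8 negative). Astrocyte markers had a median of -0.04, with 4 positive and 4 negative, and 0.11 without vector replicate 3. Oligodendrocyte markers had one of -0.19 (6 of 7 negative), a direction that 1 library set, since without vector replicate 3 it was 0.06 with 7 of 7 positive. None of these genes passed the adjusted p by edgeR. Vector replicate 3, the library lowest in Aif1 and Tyrobp and highest in Tmem119 and Sall1, had the largest summed FPKM of oligodendrocyte markers, 3376, where the other vector libraries had 2336 and 1503 and the LINC00894 libraries 2620, 1539 and 2124. That library was also far the lowest in several genes of reactive glia and myeloid cells, chosen here with their values known. Gfap, the intermediate filament of astrocytes, stood at 626.79, 646.17 and 798.41 FPKM in LINC00894, against 484.62, 711.18 and 156.02 FPKM in vector (log2 fold change 0.56, SE 0.42). Cd14, a co-receptor for lipopolysaccharide, stood at 33.40, 13.11 and 33.05 FPKM in LINC00894, against 18.44, 19.62 and 3.07 FPKM in vector. Gpnmb stood at 57.31, 37.81 and 70.73 FPKM in LINC00894, against 48.40, 39.66 and 7.52 FPKM in vector. Itgam, the integrin chain CD11b of myeloid cells, stood at 13.45, 8.96 and 11.45 FPKM in LINC00894, against 8.55, 8.87 and 2.39 FPKM in vector. Some other genes of the same lists went the opposite way. Vector replicate 3 was the highest library for Slc1a2 (311.82 FPKM), Lpl (16.88 FPKM) and Selplg (12.65 FPKM). Without vector replicate 3 the log2 fold change of Aif1 was 0.78 and that of Tyrobp 0.38.

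The presence of Y-linked counts could be set apart from the group only through LINC00894 replicate 3. With that presence as a covariate the fold change rests on LINC00894 replicate 3 against the 3 vector libraries. Aif1 then had a log2 fold change of 1.23, Tyrobp 1.08, Cx3cr1 -0.53 and Tmem119 -0.24. The edgeR adjusted p of Aif1 was 0.544 in that fit. In the libraries without Y-linked counts, LINC00894 replicates 1 and 2, Aif1 stood at 7.82 and 8.83 FPKM, above the vector range of 4.77 to 5.88 FPKM.

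Per the coordinates of the deposited table, for which no genome build is stated, Aif1 (ENSRNOG00000000853) lies on chromosome 20 from 5161333 to 5166448, and Tmem119 (ENSRNOG00000000700) on chromosome 12 from 48598647 to 48605704. Sall1 (ENSRNOG00000013907) lies on chromosome 19 from 23389375 to 23405039, Csf1r (ENSRNOG00000018414) on chromosome 18 from 56414488 to 56458300, and Cx3cr1 (ENSRNOG00000018509) on chromosome 8 from 128740756 to 128754514. P2ry12 (ENSRNOG00000013902) lies on chromosome 2 from 149441598 to 149444548, and Gpr34 (ENSRNOG00000039759) on chromosome X from 10023489 to 10031167. Trem2 (ENSRNOG00000013578) lies on chromosome 9 from 14611561 to 14618013, and Tyrobp (ENSRNOG00000020845) on chromosome 1 from 88875375 to 88879303.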

How the data were processed

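Poly(A) RNA of rat brain was extracted with TRIzol and sequenced as paired ends, per the labels' protocols. The authors deposited 1 table that gives, for each gene and library, raw counts and FPKM, per the file headers. HISAT2 2.0.1 and DESeq2 are named, with no role, in the submitters' processing notes. For the counting tool, build, annotation and strand setting, the sources used here give nothing. FPKM recomputed from counts divided by exonic length and summed counts equalled the deposited values to within 0.005. Rows without a symbol (388, with 0.0236% of counts) stayed in the tests. Groups were taken from the genotype label, and replicates were numbered in accession order, which pairs nothing.

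After filterByExpr (minimum count 10, total 15) and TMM scaling, counts went into edgeR 4.0.16 (R 4.3.3, quasi-likelihood F-test), LINC00894 over vector, over 15121 genes with Benjamini-Hochberg adjustment at 0.05. The SE is the log2 fold change divided by the root of F. The biological coefficient of variation was 0.238. Ratios used a pseudocount of 0.5 counts in their log2 form and two-sided exact permutation tests (scipy 1.17.1). Alternatives were DESeq2 1.42.0, other scalings and filters, limma 3.58.1 on log2 FPKM and with voom weights, removal of each library's length trend, Y-linked counts as a covariate and leaving out each library; the steps were tested on simulated data. Of 164 listed symbols 160 were matched. Named genes were the 9 members, up to 2 per list with the smallest unadjusted p and a mean of at least 1 FPKM, and the 5 nearest profiles to Aif1; not every gene so selected is reported, and other names are examples of lists. The members, lists and alternatives were chosen with earlier results of these data known. Figures were drawn with matplotlib 3.10.9.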

Additional observations from a re-analysis of the deposited data

How the results depend on the processing

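Aif1 kept a positive log2 fold change and an unadjusted p under 0.05 in 15 of 15 alternative fits (0.59 to 1.00, adjusted p 0.645 to 1.0), and passed the adjusted p in 0; the fit with Y-linked counts as covariate, in which 1 LINC00894 library stands against vector, is not counted and gave 1.23. Leaving out 1 library gave 0.59 to 1.00. Gpr34, Tyrobp, P2ry12 and Trem2 stayed positive and Tmem119 and Sall1 negative in all 16, and no member passed the adjusted p in any. Gpr34 also had an unadjusted p under 0.05 with voom weights and without vector replicate 3. Leaving aside the fit with Y-linked counts as covariate, Tyrobp did so without a filter on low counts and without LINC00894 replicate 2. Leaving out 1 library gave 0.45 to 1.36 for Gpr34, 0.035 to 0.72 for P2ry12, 0.028 to 0.65 for Trem2, 0.38 to 0.87 for Tyrobp, -0.93 to -0.33 for Tmem119 and -0.30 to -0.07 for Sall1. Cx3cr1 turned negative with DESeq2 (-0.005), median-of-ratios factors (-0.004), no filter on low counts (-0.001), the length trend removed (-0.057), Y-linked counts as covariate (-0.53) and voom weights (-0.023), and ran from -0.17 to 0.21 when 1 library was left out. Csf1r turned negative with Y-linked counts as covariate (-0.052) and ran from -0.046 to 0.13 when 1 library was left out. The cause was not tested. The ratio of Aif1 to Gpr34 ran from -0.55 to 0.26 and that to Tyrobp from -0.11 to 0.41 when 1 library was left out. The median of the other 8 members ran from 0.016 to 0.25 when 1 library was left out and was 0.27 with library totals only. The number of genes past the adjusted p was 9 with DESeq2 and 8 without a filter on low counts. It ran from 0 to 9 when 1 library was left out, and was 9 without LINC00894 replicate 3. Those 9 included the Y-linked Kdm5d and Eif2s3y. In that fit the presence of Y-linked counts and the group coincide. The number at an unadjusted p under 0.05 was 975 without a filter, 1368 with Y-linked counts as covariate and 394 to 1104 when 1 library was left out, the lowest without LINC00894 replicate 3 and the highest without LINC00894 replicate 2. Other ratios of Aif1 kept their sign but moved in size, that to Cx3cr1 from 0.38 to 1.10, and pseudocounts of 0 or 2 counts changed no sign. No paired analysis was possible because the replicate numbers follow accession order and pair nothing. Counts of 40 to 105 per library limit P2ry12.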
